A study of Mus musculus with 11 samples.

Results

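The genes described here encode the subunits of the nuclear pore and the receptors that carry cargo through it. They were chosen as the protein-coding genes of the gene table whose symbol begins with Nup and a digit, Xpo, Ipo, Kpna or Tnpo followed by a digit, or is Xpot or Kpnb1. The rule took 44 of 55414 genes, of which 21 are pore subunits and 23 transport receptors. A further symbol match, Kpna2-ps, is not protein coding, was at 0 in each of the 11 libraries and was left out. RNA was sequenced from mouse CD8+ T cells of OT-I genotype at 12 h, which express a transgenic T cell receptor that recognises an ovalbumin peptide. The 4 naive libraries came from cells left untreated, and the 4 stimulated libraries from cells given the solvent DMSO together with N4, the peptide seen by this receptor. The 3 Torin libraries, numbered 1, 3 and 4, came from cells that received N4 and Torin, an inhibitor of the growth-controlling kinase mTOR. The labels give no dose of either agent, no age or sex of the mice and no account of how the naive cells were isolated or kept. Nor do they state which libraries, if any, were made from different mice. The p-values therefore cover the spread among these samples alone, which may be technical.

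The nuclear pore is a large ring of repeated protein subcomplexes set into the nuclear envelope, with scaffold rings at its outer faces and inside the membrane, and a central channel filled with phenylalanine-glycine repeats. Import receptors, the importins and transportins, bind cargo in the cytoplasm and release it when the small GTPase Ran in its GTP form binds them in the nucleus, and exportins work in the opposite sense. Importin alpha proteins, encoded by the Kpna genes, are adaptors that link the classical nuclear localisation signal to importin beta, encoded by Kpnb1. Naive T cells are small resting cells, and on recognising antigen they grow, raise ribosome production and enter the cell cycle, which all draw on traffic through the pore.

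Values are CPM, the estimated counts scaled to an equal library total after composition scaling, and differences are log2 changes with their standard error (SE) and a Benjamini-Hochberg adjusted p from edgeR's quasi-likelihood test over all 22238 genes tested. A gene is said to have risen or fallen where the adjusted p was under 0.05. Means are given ± SD over 4 naive, 4 stimulated or 3 Torin libraries, and values by library follow the replicate numbers 1 to 4 (1, 3 and 4 for Torin). Totals were 241865667 to 405884097 estimated counts per library. The summed level of 7 CD8 T cell markers was 5370 to 6640 CPM in naive, 2330 to 3080 CPM in stimulated and 4060 to 4270 CPM in Torin libraries, and that of Cd4 and Foxp3 was at most 1.33 CPM. Other cell types were seen in some libraries: 7 B cell markers summed to 47400, 14400 and 13200 CPM in naive 4, stimulated 4 and Torin 4 against at most 366 CPM elsewhere. Likewise 7 granulocyte markers summed to 7920 CPM in naive 2 and 2000 CPM in stimulated 2 against at most 154 CPM elsewhere. The sum of 7 monocyte and macrophage markers was 1930 CPM in naive 2 and up to 204 CPM elsewhere. Of the markers on these lists 0 stood at 0 in every library. In bulk RNA a lower level may mean fewer cells of a type or less RNA of the gene per cell, and the design cannot tell these apart.

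Stimulation was first compared with the naive state. Of the 44 genes 43 could be tested, and 31 of these changed, where 39.5% of all genes tested did. In stimulated cells 28 were higher, against 19.2% of all genes. The genes that fell were Kpna4, Nup153 and Nup210, 3 in number, against 20.2% of all genes, and 12 did not pass the threshold. The rises included the 6 outer ring genes, 4 of 5 inner ring genes, 3 of 4 central channel genes, 4 of 6 importin alpha genes, 7 of 11 import receptors and 4 of 6 exportins. Of the rises 22 were at least 2-fold, which 14.3% of all genes reached, and 0 falls were, where 16.2% of all genes fell by as much. The median log2 change over the 43 genes was 1.10, beside -0.22 over all genes tested. Levels of the 4 stimulated libraries lay wholly above those of the 4 naive libraries for 28 genes and wholly below for 3, where 19.8% and 21.7% of all genes did so.

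**Figure D1:**
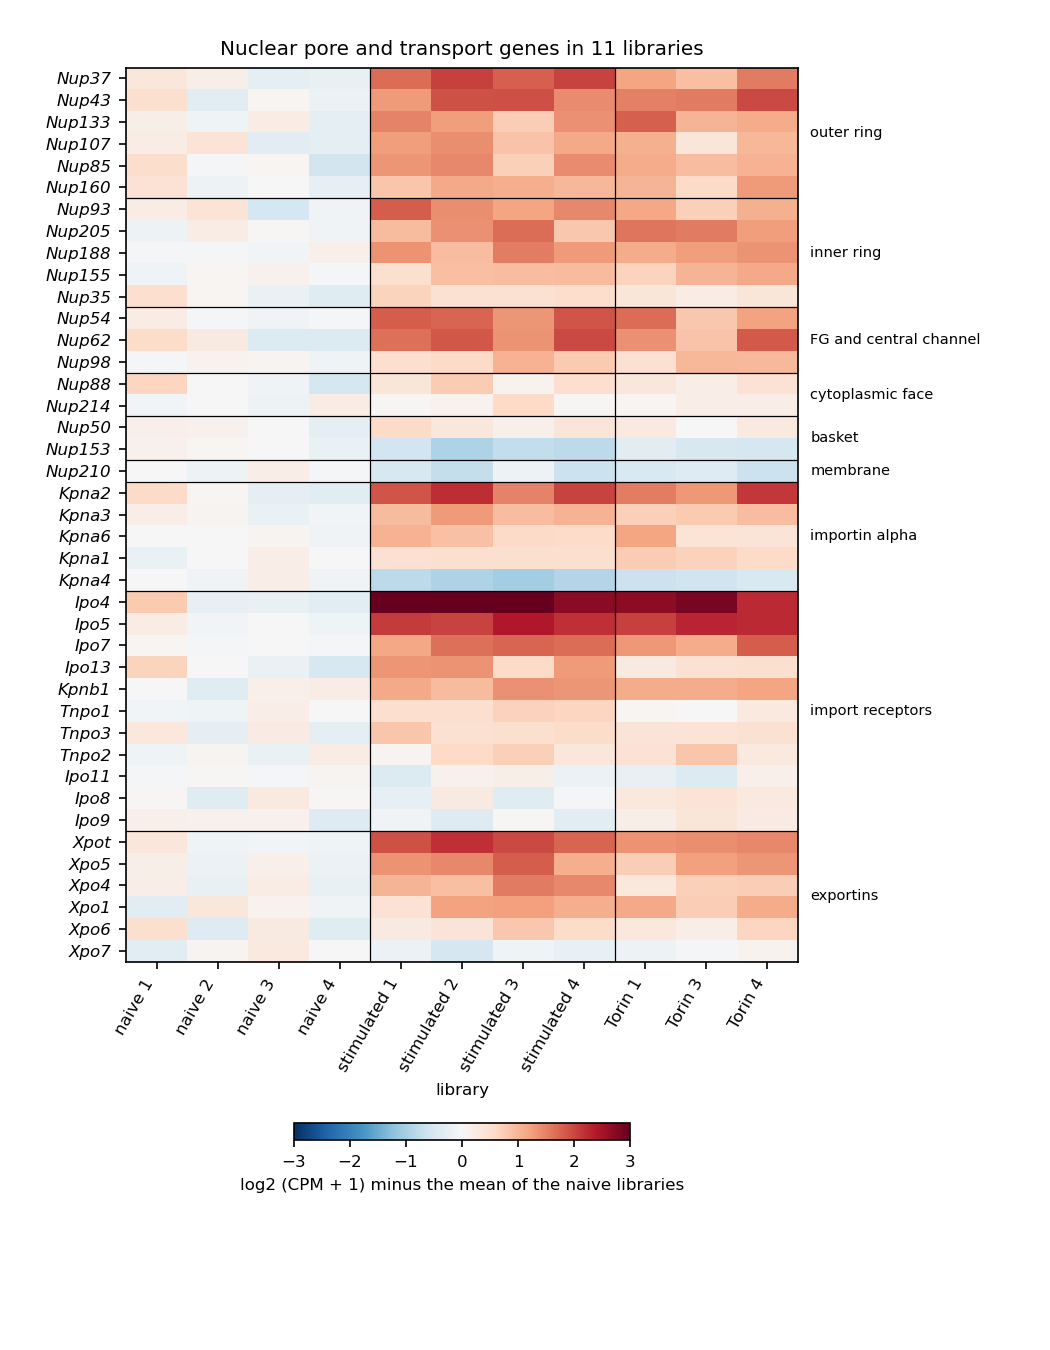
Level of 41 nuclear pore and transport genes (rows, grouped by role) in the 11 libraries (columns), shown as log2(CPM + 1) minus the mean of the 4 naive libraries, red for above and blue for below that mean. Most rows are red in the stimulated and Torin libraries, and the rows of Kpna4, Nup153 and Nup210 are blue in them.

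The outer ring, or Y complex, forms the scaffold on both faces of the pore, and its 6 genes rose. Nup37, a small propeller subunit, stood at 22.2, 19.96, 14.1 and 14.8 CPM in naive, 57.9, 75.9, 63.5 and 73.9 CPM in stimulated libraries and 41.1, 33.7 and 53.2 CPM in Torin ones. This was a rise from 17.8 ± 3.95 CPM in naive to 67.8 ± 8.56 CPM in stimulated cells (log2 change 1.93, SE 0.20, adjusted p = 3.31e-05). The lowest stimulated library stood well above the highest naive library. Nup43, another propeller subunit, stood at 13.04, 6.93, 9.57 and 7.89 CPM in naive, 23.5, 36.9, 37.9 and 26.1 CPM in stimulated libraries and 27.7, 29.0 and 39.2 CPM in Torin ones. Nup43 rose from 9.36 ± 2.69 CPM in naive to 31.1 ± 7.34 CPM in stimulated cells (log2 change 1.73, SE 0.24, adjusted p = 0.000206). Again no stimulated library reached down to the naive range. Nup133, which joins neighbouring Y complexes, stood at 4.10, 3.10, 4.25 and 2.69 CPM in naive, 11.5, 9.77, 6.43 and 10.7 CPM in stimulated libraries and 14.7, 8.05 and 8.71 CPM in Torin ones. The rise of Nup133 ran from 3.54 ± 0.759 CPM in naive to 9.60 ± 2.23 CPM in stimulated cells (log2 change 1.44, SE 0.27, adjusted p = 0.00128). All 4 stimulated libraries were above the 4 naive ones. The branch and stem subunits Nup107, Nup160 and Nup85 rose by log2 changes of 1.27, 1.24 and 1.26 (adjusted p = 0.00236, 0.00235 and 0.00164).

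The inner ring lines the membrane at the middle of the pore, and 4 of its 5 genes rose. Nup93, the subunit that ties the ring to the central channel, stood at 6.70, 7.72, 3.53 and 5.14 CPM in naive, 22.2, 16.3, 13.9 and 16.9 CPM in stimulated libraries and 13.7, 9.86 and 12.8 CPM in Torin ones. Its mean went from 5.77 ± 1.83 CPM in naive to 17.3 ± 3.51 CPM in stimulated cells (log2 change 1.59, SE 0.25, adjusted p = 0.000492). The stimulated libraries lay above the naive ones without overlap. Nup205, one of the large solenoid subunits, stood at 2.57, 3.67, 3.09 and 2.73 CPM in naive, 6.74, 9.26, 11.7 and 5.97 CPM in stimulated libraries and 11.2, 10.8 and 8.60 CPM in Torin ones. This was a rise from 3.02 ± 0.486 CPM in naive to 8.41 ± 2.59 CPM in stimulated cells (log2 change 1.48, SE 0.24, adjusted p = 0.000488). The groups did not overlap here either. Its paralog Nup188 rose by a log2 change of 1.43 (adjusted p = 5.59e-05) and Nup155, which contacts the membrane, by 0.98 (adjusted p = 0.00148). Nup35, a small membrane-binding subunit, had a log2 change of 0.53 (adjusted p = 0.0552) and overlapped between groups. With the replicate number as a block Nup35 passed (log2 change 0.56, adjusted p = 0.0351).

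In the central channel 3 of 4 genes rose, among them Nup62 and Nup54, the genes of the repeat-bearing trimer that the rule took. Nup62 stood at 27.0, 22.4, 13.6 and 13.4 CPM in naive, 59.9, 69.4, 48.3 and 75.2 CPM in stimulated libraries and 48.7, 33.9 and 68.0 CPM in Torin ones. Nup62 rose from 19.1 ± 6.73 CPM in naive to 63.2 ± 11.8 CPM in stimulated cells (log2 change 1.73, SE 0.29, adjusted p = 0.00065). Its partner Nup54 stood at 5.72, 4.52, 4.32 and 4.57 CPM in naive, 19.3, 18.3, 13.3 and 20.2 CPM in stimulated libraries and 17.4, 9.07 and 12.3 CPM in Torin ones. For both, every stimulated library was above every naive library. The rise of Nup54 ran from 4.78 ± 0.634 CPM in naive to 17.8 ± 3.08 CPM in stimulated cells (log2 change 1.89, SE 0.22, adjusted p = 7.1e-05). Nup98, a repeat protein present on both faces of the pore and tied to mRNA export, stood at 12.4, 14.1, 13.8 and 11.9 CPM in naive, 18.8, 19.8, 28.1 and 23.2 CPM in stimulated libraries and 18.2, 27.1 and 26.5 CPM in Torin ones. Its mean went from 13.1 ± 1.06 CPM in naive to 22.5 ± 4.17 CPM in stimulated cells (log2 change 0.78, SE 0.18, adjusted p = 0.00439). Its rise was smaller than that of the trimer genes in fitted value, and this difference between genes was not tested. Nup62cl, a paralog of Nup62, was at 0 in 10 libraries and at 1.17 CPM in stimulated 4 and was not tested.

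Of the 6 genes of the nuclear basket, the cytoplasmic face and the membrane ring, 2 fell and 4 did not pass. Nup153, an anchor of the nuclear basket, stood at 15.7, 14.8, 14.4 and 12.2 CPM in naive, 9.23, 7.06, 8.09 and 7.78 CPM in stimulated libraries and 10.97, 9.94 and 9.50 CPM in Torin ones. This was a fall from 14.3 ± 1.46 CPM in naive to 8.04 ± 0.906 CPM in stimulated cells (log2 change -0.83, SE 0.14, adjusted p = 0.00087). All stimulated libraries lay below all naive ones. Nup210, a transmembrane ring protein, stood at 35.5, 31.9, 40.8 and 33.6 CPM in naive, 25.2, 21.1, 31.6 and 22.1 CPM in stimulated libraries and 25.5, 27.0 and 22.1 CPM in Torin ones. Nup210 fell from 35.5 ± 3.88 CPM in naive to 25.0 ± 4.71 CPM in stimulated cells (log2 change -0.51, SE 0.16, adjusted p = 0.0239). The groups were close but did not overlap, and this call was lost without naive 3 (log2 change -0.43), stimulated 2 (-0.43), stimulated 4 (-0.45) or Torin 4 (-0.42, which enters through the shared spread). It was also lost when each library numbered 4 (-0.38) or 2 (-0.48) was left out. With the naive and stimulated libraries alone Nup210 did not pass edgeR's test either (-0.44, adjusted p = 0.0558). Nup50, a basket-associated subunit that binds importin alpha, had a log2 change of 0.37 (adjusted p = 0.0709), Nup88 on the cytoplasmic face one of 0.41 (adjusted p = 0.217) and its partner Nup214 one of 0.21 (adjusted p = 0.338). Nup210l, a paralog of Nup210, stayed at or under 0.404 CPM in each library.

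Among the importin alpha adaptors, levels moved in opposite directions. Kpna2 stood at 21.6, 14.8, 11.3 and 10.9 CPM in naive, 54.6, 69.2, 41.4 and 60.1 CPM in stimulated libraries and 42.7, 36.4 and 64.3 CPM in Torin ones. The rise of Kpna2 ran from 14.6 ± 4.97 CPM in naive to 56.3 ± 11.6 CPM in stimulated cells (log2 change 1.94, SE 0.27, adjusted p = 0.000206). Every stimulated library was above every naive one. Kpna4 stood at 31.3, 29.3, 36.7 and 29.5 CPM in naive, 17.8, 16.1, 14.8 and 16.8 CPM in stimulated libraries and 19.8, 20.7 and 22.8 CPM in Torin ones. Its mean went from 31.7 ± 3.45 CPM in naive to 16.3 ± 1.26 CPM in stimulated cells (log2 change -0.96, SE 0.13, adjusted p = 0.000143). Kpna1 stood at 8.63, 9.82, 11.5 and 10.1 CPM in naive, 14.2, 14.2, 14.3 and 14.3 CPM in stimulated libraries and 17.5, 16.6 and 15.5 CPM in Torin ones. This was a rise from 10.02 ± 1.19 CPM in naive to 14.3 ± 0.0994 CPM in stimulated cells (log2 change 0.51, SE 0.13, adjusted p = 0.00834). The 4 stimulated libraries were nearly equal for Kpna1, with a standard deviation of 0.7% of their mean, the smallest among 41 genes at 1 CPM or more. Kpna3, the closest paralog of Kpna4, rose by a log2 change of 1.14 (adjusted p = 0.000155) and Kpna6 by 0.93 (adjusted p = 0.00919). Kpna7, which is mainly known from oocytes and early embryos, was at or under 0.123 CPM in each library and did not pass.

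The largest rise in the whole set was that of Ipo4, a receptor that imports histones H3 and H4. Ipo4 (ENSMUSG00000002319.17) stood at 6.36, 2.57, 2.63 and 2.39 CPM in naive, 42.0, 43.5, 33.3 and 26.7 CPM in stimulated libraries and 26.2, 29.3 and 18.9 CPM in Torin ones. Ipo4 rose from 3.49 ± 1.92 CPM in naive to 36.4 ± 7.87 CPM in stimulated cells (log2 change 3.38, SE 0.35, adjusted p = 3.41e-05). Naive 1 stood above the other naive libraries, and every stimulated library was far above it. Ipo5, which imports ribosomal proteins and histones, stood at 6.75, 5.28, 5.61 and 5.03 CPM in naive, 27.3, 26.1, 34.0 and 29.4 CPM in stimulated libraries and 26.4, 31.2 and 30.1 CPM in Torin ones. The rise of Ipo5 ran from 5.67 ± 0.762 CPM in naive to 29.2 ± 3.47 CPM in stimulated cells (log2 change 2.37, SE 0.15, adjusted p = 6.5e-06). The stimulated and Torin libraries covered nearly the same range for Ipo5. Ipo7, another importer of ribosomal proteins, stood at 3.52, 3.23, 3.31 and 3.21 CPM in naive, 8.67, 12.6, 13.4 and 12.8 CPM in stimulated libraries and 9.71, 8.32 and 14.2 CPM in Torin ones. Its mean went from 3.32 ± 0.140 CPM in naive to 11.8 ± 2.14 CPM in stimulated cells (log2 change 1.84, SE 0.21, adjusted p = 5.33e-05). The naive libraries were closely grouped for Ipo7, with a standard deviation of 4.2% of their mean. Kpnb1, the importin beta shared by the classical pathway, stood at 13.1, 9.77, 14.5 and 15.2 CPM in naive, 29.5, 26.1, 35.1 and 34.0 CPM in stimulated libraries and 29.0, 29.1 and 30.8 CPM in Torin ones. This was a rise from 13.1 ± 2.40 CPM in naive to 31.2 ± 4.19 CPM in stimulated cells (log2 change 1.25, SE 0.16, adjusted p = 0.000132). No naive library came near the stimulated range. Tnpo1, the receptor of proline-tyrosine signals, stood at 6.58, 6.38, 8.30 and 7.18 CPM in naive, 10.5, 10.5, 12.0 and 11.6 CPM in stimulated libraries and 7.37, 6.96 and 8.86 CPM in Torin ones. Tnpo1 rose from 7.11 ± 0.865 CPM in naive to 11.2 ± 0.770 CPM in stimulated cells (log2 change 0.65, SE 0.15, adjusted p = 0.00523). Stimulated libraries were above naive ones, while the Torin libraries lay within or near the naive range.

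Of the remaining import receptors Ipo13, which works in both directions, rose by a log2 change of 1.25 (adjusted p = 0.00662), although stimulated 3 at 7.11 CPM fell under naive 1 at 7.74 CPM. Tnpo3, which imports serine and arginine rich splicing factors, rose by 0.60 on the log2 scale (adjusted p = 0.023), and its call was lost without naive 2 (0.50), naive 4 (0.51) or stimulated 1 (0.51). It was also lost without the libraries numbered 4 (0.62) or 2 (0.55). Ipo8, Ipo9, Ipo11 and Tnpo2 did not pass, with log2 changes of -0.11, -0.23, -0.06 and 0.50 (adjusted p = 0.737, 0.384, 0.858 and 0.0815). Paralogs thus differed in call, with Ipo7 past the threshold and Ipo8 not, and Tnpo1 past it and Tnpo2 not. These differences between paralogs were not tested.

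Of the 6 exportin genes 4 rose. Xpot, the tRNA exporter, stood at 4.39, 2.90, 3.05 and 2.88 CPM in naive, 14.9, 18.4, 15.8 and 13.2 CPM in stimulated libraries and 9.93, 10.2 and 10.6 CPM in Torin ones. The rise of Xpot ran from 3.30 ± 0.727 CPM in naive to 15.6 ± 2.17 CPM in stimulated cells (log2 change 2.24, SE 0.19, adjusted p = 1.07e-05). Each stimulated library was at least 3 times the mean of the naive ones. Xpo5, the exporter of microRNA precursors, stood at 4.36, 3.23, 4.30 and 3.21 CPM in naive, 11.04, 11.9, 15.7 and 9.03 CPM in stimulated libraries and 6.97, 10.2 and 10.8 CPM in Torin ones. Its mean went from 3.77 ± 0.644 CPM in naive to 11.9 ± 2.79 CPM in stimulated cells (log2 change 1.66, SE 0.23, adjusted p = 0.00017). Stimulated libraries were again all higher. Xpo1, the exporter of leucine-rich export signals and of ribosomal subunits, stood at 4.99, 8.58, 7.25 and 6.07 CPM in naive, 9.26, 16.5, 16.8 and 15.2 CPM in stimulated libraries and 15.8, 11.6 and 15.5 CPM in Torin ones. This was a rise from 6.72 ± 1.54 CPM in naive to 14.4 ± 3.52 CPM in stimulated cells (log2 change 1.10, SE 0.23, adjusted p = 0.0032). The naive and stimulated libraries did not overlap for Xpo1 either. Xpo4 rose by a log2 change of 1.46 (adjusted p = 0.000534). Xpo6, which exports actin, and Xpo7 did not pass, with log2 changes of 0.50 and -0.31 (adjusted p = 0.114 and 0.212).

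**Figure D2:**
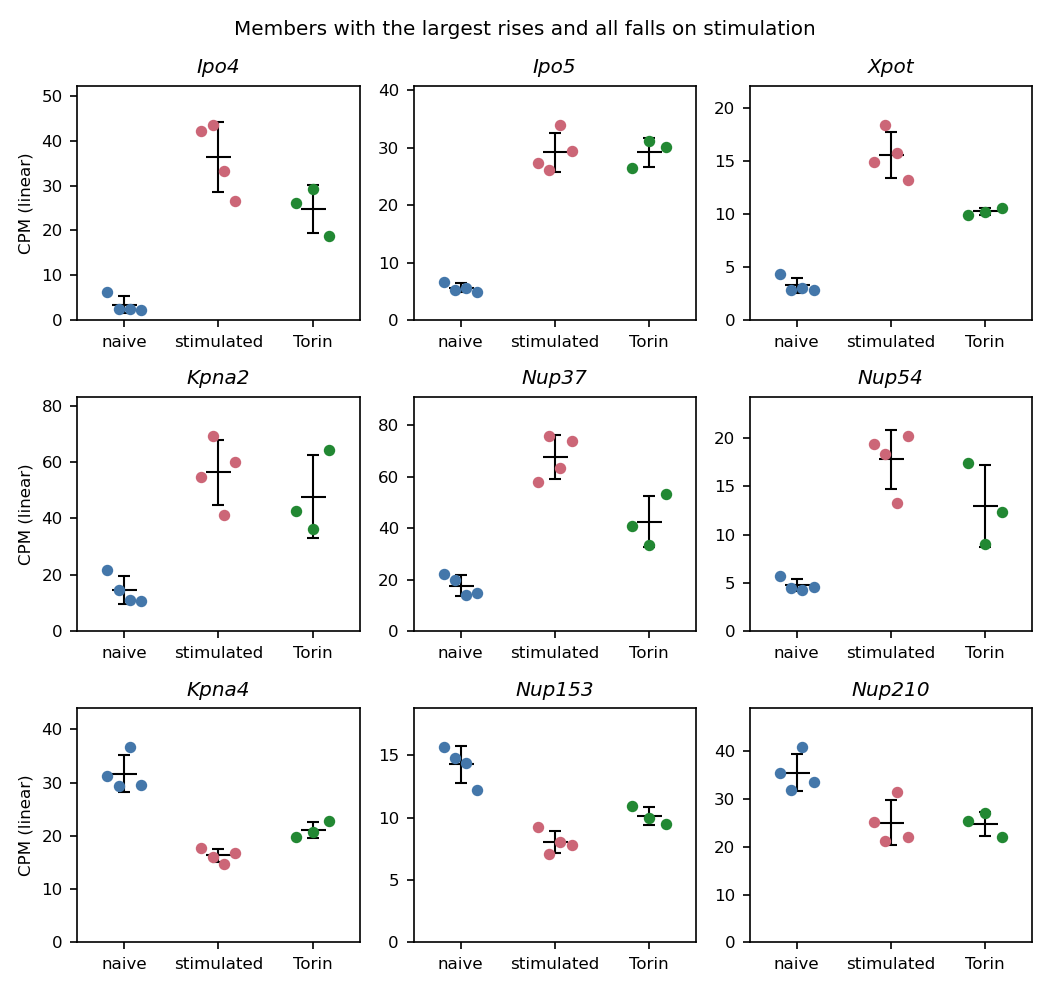
CPM of 9 genes in each library (points) with the group mean and SD (bar), for the 6 genes with the largest rises and the 3 that fell after stimulation. Ipo4 moved from a naive mean of 3.49 to a stimulated mean of 36.4 CPM, and Kpna4 from 31.7 to 16.3 CPM.

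These counts depended on the scaling. Composition factors were 1.13 to 1.35 in naive and 0.73 to 0.96 in stimulated libraries, and with library totals alone 24 genes were called, 19 higher and 5 lower (79.2% higher, against 90.3%), while the median over all genes moved from -0.22 to -0.71 and that of the 43 genes to 0.61. The rises of Ipo13, Kpna1, Kpna6, Nup155, Nup160, Nup85, Nup98, Tnpo1 and Tnpo3 were then not past the threshold, and Ipo9 and Xpo7 were lower at log2 changes of -0.73 and -0.79. No gene called under either scaling changed direction. Markers of other cell types were in part higher in naive than in stimulated libraries: 5 erythroid and platelet markers summed to 265 to 904 CPM in naive, 146 to 461 CPM in stimulated and 149 to 327 CPM in Torin libraries, and 4 stromal markers to 14.4 to 19.6, 0.76 to 4.92 and 2.03 to 2.93 CPM. Without the libraries numbered 4, which held the B cell signal, 29 genes were called (27 higher), and without those numbered 2, which held the granulocyte signal, 29 (27 higher). Calls not made with all libraries began for Nup35 without naive 1 (0.74), stimulated 3 (0.65) or Torin 4 (0.62), for Nup50 without stimulated 3 (0.53) or Torin 4 (0.46), for Nup88 and Xpo6 without naive 1 (0.68 each) and for Tnpo2 without stimulated 1 (0.62). Nup35 and Nup50 were also called by DESeq2 (0.54 and 0.39, adjusted p = 0.0157 and 0.024) and by edgeR with the libraries of both groups alone (0.60 and 0.45, adjusted p = 0.0415 and 0.0445).

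Levels of different genes can be set side by side only per length of transcript, as TPM, the count over the transcript's length scaled to an equal sum in each library. In naive cells Kpna4 was highest at 21.6 ± 5.41 TPM, followed by Nup37 at 16.1 ± 6.27 TPM, Nup43 at 8.70 ± 4.10 TPM and Kpna2 at 8.39 ± 4.45 TPM. Ranks 3 to 8 lay within each other's spread, with Nup62 at 8.32 ± 4.31 TPM and Nup88, the last of them, at 7.71 ± 4.23 TPM. The first rank of Kpna4 rested on the 459-base transcript Kpna4-202, and without it Kpna4 stood at 6.53 ± 1.59 TPM, rank 9. In stimulated cells Nup37 was highest at 39.4 ± 6.97 TPM, followed by Kpna2 at 20.5 ± 5.94 TPM, Nup62 at 17.6 ± 4.82 TPM and Nup43 at 17.4 ± 2.90 TPM, and Kpna4 stood at rank 12 with 4.91 ± 1.22 TPM. The last 3 of these leading genes lay within each other's spread. Ipo4 moved from rank 30 at 1.25 ± 0.77 TPM to rank 7 at 7.28 ± 2.20 TPM. With Torin the leading genes were Nup37 at 27.9 ± 7.04 TPM, Nup43 at 20.7 ± 4.63 TPM, Kpna2 at 19.4 ± 6.44 TPM and Nup62 at 15.8 ± 6.24 TPM, with Kpna4 at rank 6 with 8.69 ± 0.36 TPM. Nup43, Kpna2 and Nup62 lay within each other's spread there too. Without Kpna4-202, Kpna4 stood at rank 21 in stimulated cells (2.63 ± 0.65 TPM) and at rank 17 with Torin (3.56 ± 0.66 TPM). Kpna7, Nup210l and Nup62cl held the lowest 3 ranks in each group.

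Within the importin alpha family the per-length shares moved furthest for Kpna4 and Kpna2. Kpna4 made up 54.9, 59.3, 68.3 and 61.3% of the summed TPM of the 6 Kpna genes in naive libraries, 17.0, 14.0, 16.3 and 14.6% in stimulated libraries and 27.1, 29.1 and 19.7% in Torin libraries. Kpna2 made up 30.8, 23.7, 16.4 and 19.7% in naive, 63.3, 66.7, 58.2 and 65.6% in stimulated and 51.0, 48.0 and 63.5% in Torin libraries. No library overlapped between naive and stimulated groups for either share. Kpna1 held 7.89 ± 1.53% in naive and 8.48 ± 2.01% in stimulated cells. These shares follow transcript make-up as well as gene level, since a short transcript weighs more per length. Kpna4-202 held 69.7% of the Kpna4 TPM in naive, 46.2% in stimulated and 58.8% in Torin libraries on average. Without it Kpna4 made up 32.3, 8.99 and 12.0% of the family's TPM in these groups, and Kpna2 39.0, 68.3 and 63.7%, so that Kpna2 had the higher mean share in naive cells too.

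**Figure D3:**
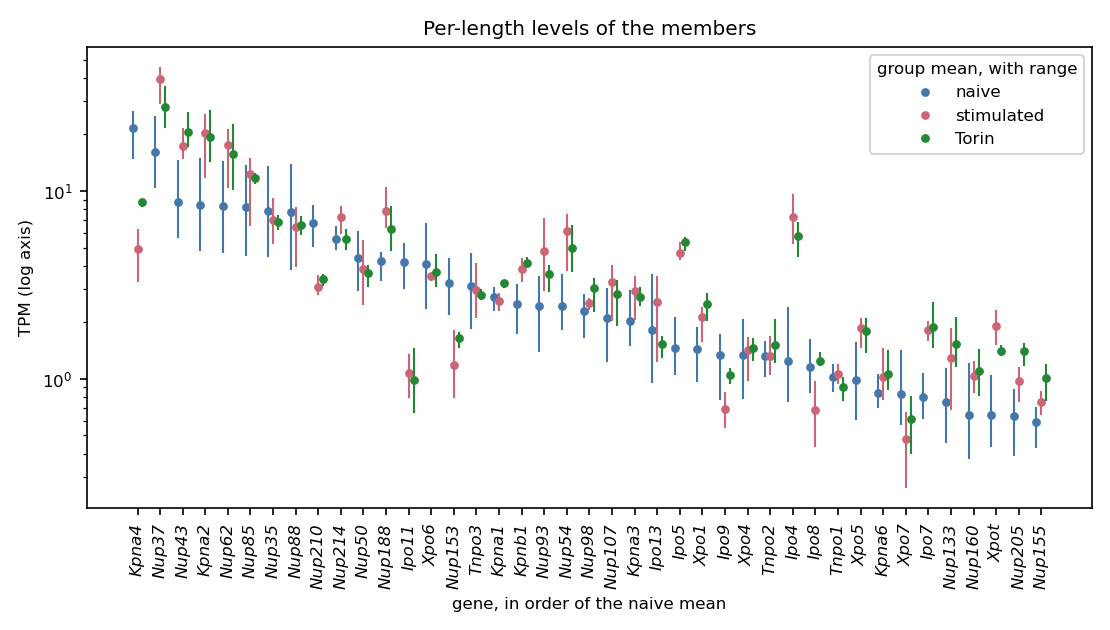
Mean level per length (TPM, log axis) of each gene in naive, stimulated and Torin libraries, with a line from the lowest to the highest library, ordered by the naive mean. Kpna4 leads in naive cells at 21.6 TPM (6.53 TPM without Kpna4-202) and Nup37 in stimulated cells at 39.4 TPM.

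Promoter windows from RefSeq (GRCm38.p6, 250 bases before to 50 bases after the start) were found for 35 of the 44 genes. The others were Kpna1, Kpna3, Kpna6, Nup210l, Nup35, Nup43, Nup85, Xpo4 and Xpo7. The letters CACGTG, the E-box bound by Myc and other factors, were present in 7 of 35 genes (20%), against 8.1% of all 27025 genes with windows of the same length. They were in 6 of the 22 genes with a window that rose and in 1 of the 13 others, Tnpo2. Stretches of 80 bases before the start are shown for 5 genes that rose at least 2-fold, with CACGTG in capitals, because these genes rose together and share the letters.
Xpot: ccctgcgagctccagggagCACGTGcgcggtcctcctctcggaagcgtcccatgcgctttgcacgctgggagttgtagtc
Ipo7: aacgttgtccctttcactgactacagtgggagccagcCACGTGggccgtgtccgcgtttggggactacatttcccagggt
Nup54: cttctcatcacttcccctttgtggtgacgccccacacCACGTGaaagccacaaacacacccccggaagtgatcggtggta
Nup93: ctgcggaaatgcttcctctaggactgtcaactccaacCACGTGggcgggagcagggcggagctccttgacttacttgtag
Nup188: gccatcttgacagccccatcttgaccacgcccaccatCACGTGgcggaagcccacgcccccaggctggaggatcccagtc
The stretches are Xpot chr10:121626503-121626582 (minus strand), Ipo7 chr7:110018141-110018220 (plus), Nup54 chr5:92435257-92435336 (minus), Nup93 chr8:94214352-94214431 (plus) and Nup188 chr2:30286313-30286392 (plus). The motif began 231, 137, 100, 175 and 66 bases before the start, and Nup188 held a further copy 24 bases before it. The matching genes that rose ran from a log2 change of 3.38 for Ipo4, whose match lies after the start, to 1.43 for Nup188.

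The letters GCGCATGCG, the core of the site bound by NRF1, were in 4 of the 35 genes (11.4%) and in 2.0% of all genes, namely in Nup107, Nup62 and Xpo5, which rose, and in Nup50, which did not pass. The stretches are shown because this 9-base motif was in few other promoters, with the motif in capitals.
Nup107: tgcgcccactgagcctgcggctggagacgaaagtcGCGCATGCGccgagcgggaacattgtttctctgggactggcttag
Nup62: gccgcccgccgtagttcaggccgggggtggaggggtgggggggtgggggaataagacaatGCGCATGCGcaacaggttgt
Xpo5: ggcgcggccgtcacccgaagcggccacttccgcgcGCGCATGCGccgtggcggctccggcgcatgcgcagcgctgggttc
They are Nup107 chr10:117792726-117792805 (minus), Nup62 chr7:44816008-44816087 (plus) and Xpo5 chr17:46202691-46202770 (plus), with the motif beginning 65, 20 and 85 bases before the start, and Xpo5 held a further copy 62 bases before it. The ETS core CCGGAAG was in 6 of 35 genes (17.1%, against 9.9% of all genes), each of which rose, CCAAT in 20 (57.1%, against 41.1%), 10 of the 22 that rose and 10 of the 13 others, and TGACGTCA in 2 (5.7%, against 2.0%). Both strands were searched for each motif. A match is a run of letters in this window and not a measured site, and the motifs were chosen with the changes of these genes known. The background of all genes was not limited to protein-coding or expressed genes. Each motif searched was more frequent in the chosen genes than in that background.

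Torin given with the peptide was then compared with the peptide and solvent alone. Of the 43 genes 0 passed the threshold of edgeR's test, where 4.62% of all genes did. At an unadjusted p under 0.05 there were 7 of 43 (16.3%), against 20% of all genes: Ipo13, Nup37, Tnpo1, Xpo4 and Xpot were lower and Ipo9 and Kpna4 higher with Torin. The alternative tool DESeq2 called 4, Nup37, Tnpo1, Xpo4 and Xpot, each lower. The lowest adjusted p by edgeR was 0.0985, for Tnpo1, and the count was also 0 without the libraries numbered 4 or those numbered 2. The median log2 difference over the 43 genes was -0.07, beside -0.02 over all genes. Groups did not overlap for 8 genes lower with Torin and 5 higher, where 10.1% and 9.56% of all genes were so.

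The size of the Torin difference was bounded for most genes. For 35 of 41 genes at 1 CPM or more the 95% interval of the log2 difference lay within a 2-fold change either way, and the exceptions were Ipo13, Ipo4, Nup37, Nup93, Xpo4 and Xpot. Ipo5 was at 29.2 ± 3.47 CPM without and 29.2 ± 2.5 CPM with Torin, with an interval of the log2 difference of -0.34 to 0.34. Xpo1, at 14.4 ± 3.52 and 14.3 ± 2.33 CPM, had an interval of -0.57 to 0.54. Kpnb1 stood at 31.2 ± 4.19 and 29.6 ± 1.02 CPM (interval -0.46 to 0.31). These intervals hold no large difference but do not show that the levels were equal.

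Of the genes leaning lower with Torin, Nup37 had the values given above, with each Torin library under each stimulated library and a log2 difference of -0.67 (SE 0.21, adjusted p = 0.106). Xpot likewise did not overlap between the groups (log2 difference -0.60, SE 0.19, adjusted p = 0.11). Tnpo1 stood at 11.2 ± 0.77 CPM without and 7.73 ± 1.0 CPM with Torin (log2 difference -0.53, SE 0.16). Within the numbers 1, 3 and 4, these 3 genes were among 15 of 43 (34.9%) for which each Torin library was under the stimulated library of its number, where 20.7% of all genes were so, and 7 (16.3%) were higher in each, beside 20.7% of all genes. Xpo4 had a log2 difference of -0.75 (adjusted p = 0.129) and Ipo13 one of -0.85 (adjusted p = 0.178). With a filter of a mean of at least 5 CPM, Nup37 (adjusted p = 0.0454) and Xpot (0.0475) passed.

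Of the 3 genes that had fallen with stimulation, Kpna4 and Nup153 had higher mean levels with Torin, without passing. Kpna4 was at 16.3 ± 1.26 CPM without and 21.1 ± 1.55 CPM with Torin (log2 difference 0.37, adjusted p = 0.156), and the Torin libraries lay between the stimulated and the naive ranges without overlap. Nup153 was at 8.04 ± 0.91 and 10.1 ± 0.75 CPM (log2 difference 0.33, adjusted p = 0.255). Nup210 was at 25.0 ± 4.71 and 24.8 ± 2.51 CPM (log2 difference -0.01), so no such shift was seen for it. Ipo8 and Ipo9 also leaned higher, by 0.48 and 0.52 on the log2 scale (adjusted p = 0.288 and 0.195).

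**Figure D4:**
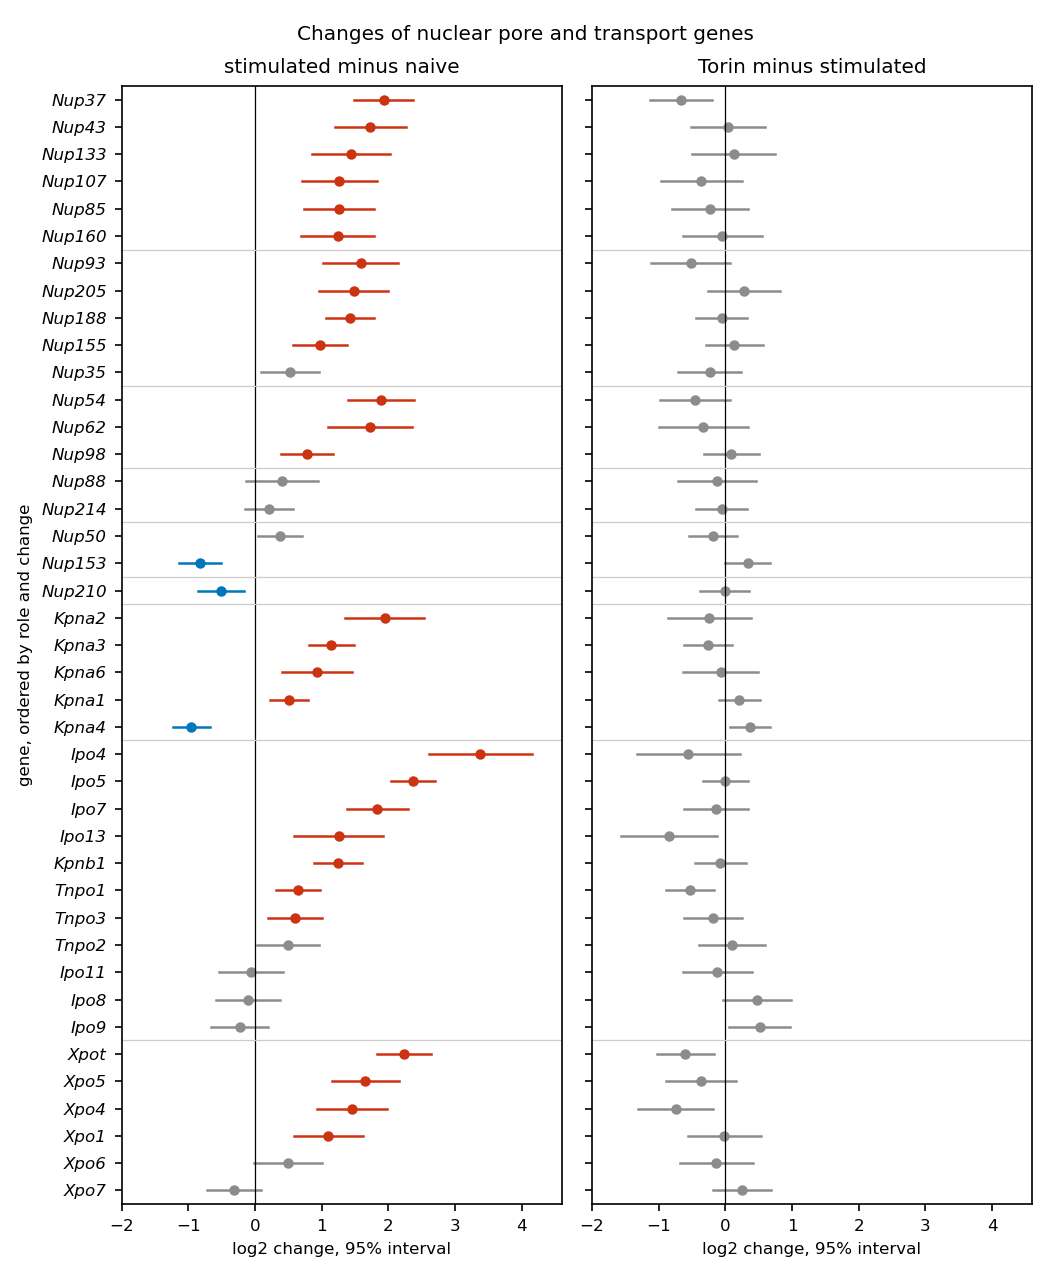
Log2 change of 41 genes with its 95% interval, stimulated minus naive (left) and Torin minus stimulated (right). Red points passed the threshold as higher and blue ones as lower, and grey points did not pass, among them all points of the right panel.

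Cells given peptide and Torin were also set beside naive cells, a comparison that shares libraries with both others. Here 25 genes were higher, where 16.4% of all genes were, 3 were lower, where 15.8% were, and 15 did not pass. The median log2 change was 0.88, beside -0.18 over all genes. Ipo4 was again the largest rise, from 3.49 ± 1.92 to 24.8 ± 5.38 CPM (log2 change 2.83, adjusted p = 0.000202), followed by Ipo5 at 2.37 and Nup43 at 1.77. Nup205 rose from 3.02 ± 0.49 to 10.2 ± 1.41 CPM (1.76, adjusted p = 0.000389). Kpna4, Nup210 and Nup153 were lower by log2 changes of -0.59, -0.51 and -0.49 (adjusted p = 0.00708, 0.0388 and 0.0324). Tnpo1, Tnpo3 and Ipo13, which had passed with the peptide alone, did not pass here, with log2 changes of 0.12, 0.42 and 0.41. With library totals alone 20 genes were called, 17 higher and 3 lower (85% higher), and Kpna1, Kpna3, Kpna6, Nup107, Nup160, Nup85, Nup93 and Xpo4 did not pass. The difference of Tnpo1, Tnpo3 and Ipo13 between stimulated and Torin cells is the comparison given above, which was not past the threshold.

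Several of these calls rested on single libraries, with log2 changes in brackets. Nup153 did not pass without naive 1 (-0.45), naive 2 (-0.48), naive 3 (-0.49), Torin 1 (-0.55), Torin 3 (-0.48) or Torin 4 (-0.34), and Nup210 without naive 1 (-0.52), naive 3 (-0.44), naive 4 (-0.54), Torin 1 (-0.53), Torin 3 (-0.58) or Torin 4 (-0.33). Among the rises, Xpo4 did not pass without naive 2 (0.62), naive 4 (0.62), stimulated 1 (0.71), stimulated 4 (0.71), Torin 3 (0.64) or Torin 4 (0.74), nor with the replicate number as a block (0.60, adjusted p = 0.0733), and Nup107 without naive 3 (0.78), naive 4 (0.79), Torin 1 (0.77) or Torin 4 (0.92). Kpna6 did not pass without naive 4 (0.81) or Torin 1 (0.50), and without all libraries numbered 4 the fall of Kpna4 (-0.56, adjusted p = 0.0624) and the rises of Nup160 (1.01) and Nup93 (1.09) did not pass either. Nup35 passed without naive 1 (0.51) and Tnpo2 without Torin 4 (0.83).

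The transcript table showed whether the make-up of a gene changed with its level. Usage could be tested for 32 transcripts of 14 of the 44 genes. In stimulated against naive cells 4 of these 14 had a transcript of changed share, which is not above the 31.5% of all genes tested. The changes below are therefore those of single genes and not a trait of the set. In Nup214 the transcript Nup214-207, a 738-base retained-intron form, rose from 3.81, 3.92, 2.53 and 2.06% of the gene's count in naive to 13.3, 23.2, 18.1 and 29.6% in stimulated libraries, with 8.61, 8.30 and 11% in Torin libraries (log2 change of the share 2.06, adjusted p = 0.000566 by limma). No naive library reached the range of the other groups, and the Torin libraries lay between. Nup214-208 fell from 7.66 to 2.35% of the count, but it shares 177 exon bases on the opposite strand with Fam78a, whose level fell from 52.4 to 2.72 CPM, and 237 with Gm16534, for which the naive mean was 8.69 CPM and the stimulated mean 0.13 CPM. The library kit as named in the labels is not stated to keep strand, so reads of these overlapping genes cannot be told apart.

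In Kpna4 the 459-base transcript Kpna4-202 fell from 18.8, 20.4, 20.6 and 17.7% in naive to 8.35, 10.6, 7.82 and 7.74% in stimulated libraries, and was at 17.1, 14.8 and 9.53% in Torin libraries (adjusted p = 0.0057 for stimulated against naive). Stimulated libraries were all below naive ones. Torin 4 lay within the stimulated range, and Torin 1 and Torin 3 lay between the stimulated and naive ranges. The main coding transcript Kpna4-203 rose from 59.1 to 73.6% of the count (adjusted p = 0.0384). With the replicate number as a block its adjusted p was 0.0889, and the call was lost without naive 2, 3 or 4, without any 1 of the stimulated libraries or without Torin 3, at log2 changes of its share of 0.29 to 0.34. In Ipo11 the noncoding transcript Ipo11-201 fell from 34.7 to 7.41% (adjusted p = 0.00568), and the coding Ipo11-202 was at 31.9 ± 24.0% in naive and 82.3 ± 15.4% in stimulated cells (adjusted p = 0.0592). The level of Ipo11 summed over transcripts was meanwhile 5.02 ± 0.33 and 4.82 ± 1.06 CPM. In Nup88 the decay-annotated transcript Nup88-213 fell from 10.6 to 3.47% (adjusted p = 0.0108).

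Between Torin and stimulated cells limma called 0 of the 32 transcripts, with 3 at an unadjusted p under 0.05, and 2.3% of all genes tested had a called transcript. Between Torin and naive cells 2 of the 14 genes had one, Nup214 through Nup214-207 and Ipo11 through Ipo11-201. This too is not above the 17% of all genes tested. For Nup214-207 that call was lost without naive 3 (log2 change of the share 1.07), naive 4 (0.95), Torin 1 (1.12), Torin 3 (1.15) or Torin 4 (0.99), and with the replicate number as a block (1.15, adjusted p = 0.0805). Other genes share exon bases with a neighbour too, most of all Ipo4, of whose exon bases 55.3% lie also in Gm49378, on the same strand. Over all libraries Gm49378 averaged 0.51 CPM and Ipo4 19.5 CPM, and how reads were divided between them is not stated in the sources used here.

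**Figure D5:**
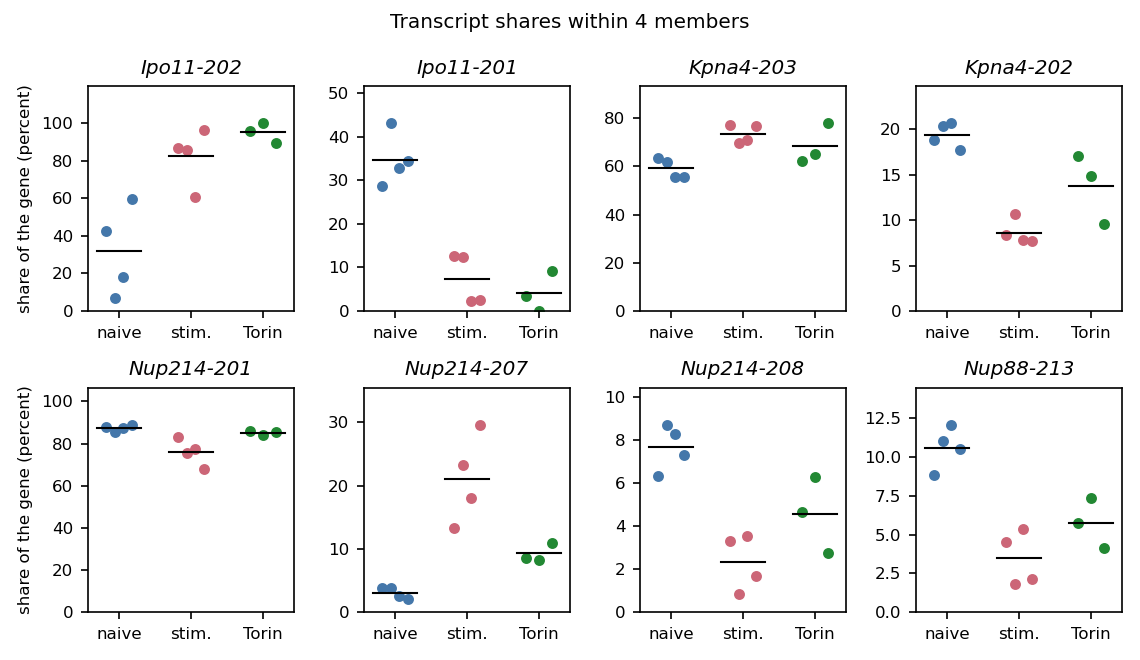
Share of a gene's summed transcript counts (percent) held by 8 transcripts of Ipo11, Kpna4, Nup214 and Nup88 in each library (points, line at the group mean). Nup214-207 moved from a mean of 3.08% in naive to 21% in stimulated libraries and 9.30% in Torin libraries.

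Other genes of nuclear transport were described from lists of 62 genes, of which 59 could be tested. After stimulation 34 rose and 9 fell, beside the background of 19.2% and 20.2% given above. Of the Ran cycle and its partners 6 of 8 rose and 0 fell: Rcc1, the exchange factor that charges Ran in the nucleus, by a log2 change of 2.83, Ran itself by 2.31, Ranbp1 by 2.09, Nutf2, which carries Ran back into the nucleus, by 2.02, Rangap1 by 1.0 and Cse1l, which returns importin alpha to the cytoplasm, by 0.96. Of 20 mRNA export genes 15 rose, led by the helicase gene Ddx39 at 2.5, and Mcm3ap fell by 0.64 on the log2 scale. Of 9 cargo adaptors 6 rose, among them Ltv1 (2.52) and Nmd3 (1.5), which serve export of the ribosomal subunits, and Akirin2 (-0.42) and Cetn2 (-0.58) fell.

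Among 11 further pore genes Nupl2 (1.46), Ndc1 (1.40), Seh1l (1.29), Sec13 (1.14) and Rae1 (0.58) rose. Tpr, the main strut of the nuclear basket, fell by 0.67 on the log2 scale (adjusted p = 0.0237 by edgeR). The margin between groups was narrow, since naive 3 stood at 59.1 CPM where stimulated 4 reached 58.2 CPM. Naive 1 was the highest library for Tpr at 125 CPM. Between Torin and naive cells Tpr did not pass (log2 change -0.28, adjusted p = 0.383 by edgeR). Of the basket genes that the rule took, Nup153 had fallen, while Nup50 leaned higher without passing (log2 change 0.37). Of 11 lamina and envelope genes 5 fell, Syne1 (-4.02), Syne2 (-2.96), Sun2 (-2.49), Lbr (-1.02) and Lemd3 (-0.87), and Lmnb1 (1.61) and Emd (0.64) rose. Between Torin and stimulated cells 0 of the 59 genes passed edgeR's test, 14 were at an unadjusted p under 0.05 (23.7%, against 20% of all genes), and DESeq2 called 7.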

How the data were processed

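The authors deposited estimated counts per gene and per transcript for 11 libraries as whole numbers, which were used as deposited, with no rounding. Per the submitters' processing notes the genome was mm39, and StringTie 2.1.0, STAR 2.7.1a, DESeq2 1.30.1, SAMtools 1.9 and R 4.0.5 are named there with no roles. Columns headed Control were taken as the libraries labelled stimulated, by the design text and their shared numbers. The labels name a low-input poly(A) kit. Totals were 241865667 to 405884097, above usual read numbers, so no counting intervals were computed and precision rests on the spread between libraries. Symbols, transcript types and lengths came from GENCODE M21 (GRCm38), matched without version (94.1% of genes, 97.1% of transcripts), so no gene coordinates on mm39 are given. Nupl1 and Nupl2 carry older symbols there, fell outside the rule and were counted among the further pore genes. Nupl1 was at or under 0.100 CPM in each library and was not tested.

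The gene test was the quasi-likelihood F test of edgeR 4.0.16 (R 4.3.3), with TMM factors, filterByExpr at a minimum count of 10, 1 model of 3 group means and Benjamini-Hochberg adjustment over 22238 genes. The SE was the log2 change over the square root of F. Transcript shares were tested with limma 3.58.1 on log2 ratios with a prior of 0.5 CPM, in 13889 transcripts with a mean of at least 1 CPM. TPM used matched transcripts, which held at least 95.25% of each gene's count, without composition factors. Values by library are given for the 8 largest rises and 6 largest falls past the threshold per comparison whose higher group reached a mean of 1 CPM, and for 14 fixed genes. The genes and lists were chosen with earlier results of these data known.

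The labels do not explain the replicate numbers. Deviations from the group means correlated between libraries of 1 number at 0.16, 0.23, 0.15 and 0.29 (naive with stimulated, numbers 1 to 4) and at 0.11, 0.15 and 0.31 (stimulated with Torin), so the numbers were taken to pair these libraries, each value being over 0.1. The main test left this pairing out, and the replicate block was fitted as an alternative only. For naive with Torin they were 0.08, 0.13 and 0.28, and each was above the highest value between different numbers (0.07, 0.07 and -0.018). No 2 libraries were duplicates. Tested on simulated data, edgeR recovered 8% of 2-fold and 67% of 4-fold changes for stimulated against naive (20869 genes, 0 false calls) and 11% and 58% for Torin against stimulated (20846 genes, 3 false calls). Each simulation changed 200 genes, drawn from all those with a mean of at least 1 CPM. In the data 39.5% and 4.62% of all genes were called, so the adjustment was stricter in the simulation. These rates are therefore not the recovery to be expected for the genes described here. The transcript test recovered 34% of 100 changed genes among 4513, with 10 false genes. Alternatives were DESeq2 1.42.0, library totals alone, no filter, a mean of at least 5 CPM, the libraries of both groups alone, the replicate block, a usage prior of 2 CPM, each library left out, and the libraries numbered 4 left out. Leaving out those numbered 2, or Kpna4-202 from TPM, was chosen after seeing the data.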

Additional observations from a re-analysis of the deposited data

Results flagged for a closer look

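In groups of 4 libraries, a library was singled out where its gap to the nearest other library, over the range of the group, exceeded Dixon's critical value at 95%. This held for 7 of 98 groups of naive or stimulated CPM or transcript share tested, where chance singles out about 5%. In naive 1, Ipo4 stood at 6.36 CPM against 2.39 to 2.63 CPM in the other naive libraries, and Xpot at 4.39 CPM against 2.88 to 3.05 CPM. Ifng, a gene of activated T cells, stood in naive 1 at 189 CPM, against 62.6, 1.496 and 3.34 CPM in naive 2 to 4. Whether these values are linked was not tested. In naive 4, Ipo9 was at 4.22 CPM against 6.39 to 6.53 CPM. In stimulated 1, Ipo7 was at 8.67 CPM against 12.6 to 13.4 CPM and Nup155 at 5.88 CPM against 8.27 to 8.45 CPM. Stimulated 3 had Ipo13 at 7.11 CPM against 12.4 to 13.1 CPM and Nup214 at 32.4 CPM against 21.6 to 22.9 CPM.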

How the results depend on the processing

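Leaving out 1 library at a time gave 30 to 34 called genes for stimulated against naive, 24 to 28 for Torin against naive and 0 for Torin against stimulated. Over all genes, calls between Torin and stimulated cells ran from 144 (without Torin 3) to 1058. They numbered 2740 with DESeq2, 656 with no filter, 55 without the libraries numbered 4 and 338 without those numbered 2. For that comparison DESeq2 called 4 of the pore and transport genes and 7 related genes, a mean of at least 5 CPM gave 2 and 2, and the libraries of both groups alone gave 1 related gene. With the replicate block 1 related gene was called, Nup35 was gained for stimulated against naive, the share of Kpna4-203 was lost there, and Xpo4 (log2 change 0.60, adjusted p = 0.0733) and Nup214-207 were lost for Torin against naive. The block changed no other call of a pore or transport gene. Genes with a transcript of changed share numbered 3 to 5 for stimulated against naive and 1 to 3 for Torin against naive with 1 library left out, and 1 for Torin against naive with a prior of 2 CPM or with the block. With library totals alone 24 related genes were called for Torin against naive. No called gene changed direction under the alternatives run, and the causes of lost calls were not tested.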

Other observations

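Nup107 differed between libraries in which of 2 transcripts held its count. Nup107-202 held 23.8% of the count in naive 3, 78.3% in stimulated 3 and 64.8% in Torin 4. It was at 0% in the other 8 libraries. Nup107-201 held most of the rest. The level of Nup107 was 4.11 CPM in naive 3 and 10.7 CPM in stimulated 3, the lowest of their groups, and 11.8 CPM in Torin 4. Such shifts within a group were not particular to Nup107. Tnpo2-205 held 20.4, 0, 100 and 99.7% of its gene's count in naive 1 to 4, and Nup62-203 held 24.5% in Torin 4 and 0% elsewhere. Decay-annotated transcripts of Ipo9 held 27.05, 64.6, 0.59 and 2.04% in naive 1 to 4 and 72.7% in stimulated 3. How counts were assigned to transcripts was not tested, and the shares and TPM values rest on that assignment.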
